A study of Mus musculus with 5 samples.

Results

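The genes described here are 9 regulators of the life span of cytokine messenger RNAs: Zfp36, Zfp36l1, Zfp36l2, Zc3h12a, Zc3h12c, Rc3h1, Rc3h2, Khsrp and Elavl1. They were taken by symbol from the deposited expression table, and all 9 were among its 13339 listed genes. The cells were mouse bone marrow-derived macrophages of the C57BL/6 strain, from 8-week animals, cultured for 5 days with the growth factor M-CSF. They were exposed to lipopolysaccharide (LPS), a component of the bacterial outer membrane, at 100 ng/ml and collected at 0, 4, 8, 12 and 24 h. The sample titles mark every library as WT, and no other genotype or agent is named for any of them. There was 1 library per time point, so no test between times was possible and each difference below is between a pair of libraries. Time-matched cells without LPS are not among the libraries, so time in LPS and time in culture cannot be told apart.

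Cytokine transcripts of activated macrophages are short-lived, because many carry AU-rich elements or stem-loops in the 3' untranslated region (3' UTR) that decay factors recognise. Zfp36 encodes tristetraprolin, which binds the AU-rich motif and recruits the CCR4-NOT deadenylase, and Zfp36l1 and Zfp36l2 encode its paralogs with the same kind of zinc finger pair. Zc3h12a encodes Regnase-1, an endonuclease that cuts stem-loops in transcripts such as Il6, and Zc3h12c encodes a related RNase, Regnase-3. Rc3h1 and Rc3h2 encode Roquin-1 and Roquin-2, stem-loop binding proteins that also recruit deadenylases. Khsrp encodes KSRP, a KH-domain protein that promotes decay of AU-rich transcripts, whereas Elavl1 encodes HuR, which binds AU-rich RNA and mainly stabilises it.

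Several of these genes carry in their own 3' UTR the heptamer TATTTAT, the core motif that tristetraprolin binds. In the longest protein-coding transcript of each gene (GENCODE M21, build GRCm38), it was found in 7 of 9 members. Zfp36 held 3 copies in a 3' UTR of 774 nt, Zfp36l1 held 3 in 1835 nt and Zfp36l2 held 3 in 1822 nt. Among genes whose 3' UTR was within 20% of the same length, 0.9% held as many copies as Zfp36, 3.5% as many as Zfp36l1 and 3.5% as many as Zfp36l2. Elavl1 held 8 partly overlapping copies in 4218 nt, and 0.3% of 3' UTRs of like length held as many. Rc3h2 held 3 copies and Rc3h1 and Zc3h12c 2 each in far longer 3' UTRs, where 15.7%, 46.6% and 27.9% of genes of like length held as many. Zc3h12a and Khsrp held no copy on the strand of the transcript. The first copy in each of the tristetraprolin genes and in Elavl1 is shown here with 10 bases on either side and the heptamer in capitals, since these are the genes with the rarest counts for their length.

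Zfp36 (3' UTR site, chr7:28376967-28376993, minus strand): gtgggcccttTATTTATgacgacttta
Zfp36l1 (3' UTR site, chr12:80108423-80108449, minus strand): tatcaaaacgTATTTATtgccaaacta
Zfp36l2 (3' UTR site, chr17:84184915-84184941, minus strand): ctatttaactTATTTATtatcttgtga
Elavl1 (3' UTR site, chr8:4285789-4285815, minus strand): tcatgaaaatTATTTATttatttattt

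The region around the start site was searched for short sequence motifs in the members. RefSeq promoter windows (GRCm38.p6, 250 bases before to 50 after the start) were matched for 8 of the 9 members, with 9 windows in all because Zc3h12c has a pair of start sites; Zfp36l2 was not matched. They were searched on both strands for the kappaB and CArG consensus motifs and for TGANTCA (AP-1), TGACGTCA (CRE), TTCNNNGAA (the STAT motif, GAS), GAAANNGAAA (ISRE) and GCGTGGGCG (EGR). The window of Zfp36, whose level was far higher under LPS, held a CArG match that starts 58 bases before the start site and a GAS match that starts 17 bases before it. A CArG match was found in 1.6% and a GAS match in 8.3% of all 32851 promoter windows. The window of Zfp36l1, whose level was far lower under LPS, held 1 match to TGANTCA, as did that of Rc3h1, against 7.8% of all windows. None of the 7 motifs was found in the windows of Zc3h12a, Zc3h12c, Rc3h2, Elavl1 or Khsrp. Zfp36 was thus the only higher member with a match, and Zfp36l1 the only lower member searched. With 7 motifs sought in 9 windows, some matches can occur by chance, and a link to the level under LPS was not tested. The windows of Zfp36, Zc3h12a and Zfp36l1 are shown 5' to 3' with the matches in capitals.

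Zfp36 (promoter, chr7:28379179-28379478, minus strand): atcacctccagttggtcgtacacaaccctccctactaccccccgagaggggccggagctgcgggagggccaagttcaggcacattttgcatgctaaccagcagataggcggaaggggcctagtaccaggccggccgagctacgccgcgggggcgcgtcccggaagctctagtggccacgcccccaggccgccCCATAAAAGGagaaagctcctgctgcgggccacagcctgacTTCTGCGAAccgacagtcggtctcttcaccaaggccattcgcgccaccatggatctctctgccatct
Zc3h12a (promoter, chr4:125127832-125128131, minus strand): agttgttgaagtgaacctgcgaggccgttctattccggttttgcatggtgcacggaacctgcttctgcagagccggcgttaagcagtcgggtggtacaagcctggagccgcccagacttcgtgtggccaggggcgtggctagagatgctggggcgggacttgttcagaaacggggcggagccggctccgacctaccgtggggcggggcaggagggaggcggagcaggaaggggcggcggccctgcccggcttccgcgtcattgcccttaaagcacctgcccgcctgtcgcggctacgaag
Zfp36l1 (promoter, chr12:80112964-80113263, minus strand): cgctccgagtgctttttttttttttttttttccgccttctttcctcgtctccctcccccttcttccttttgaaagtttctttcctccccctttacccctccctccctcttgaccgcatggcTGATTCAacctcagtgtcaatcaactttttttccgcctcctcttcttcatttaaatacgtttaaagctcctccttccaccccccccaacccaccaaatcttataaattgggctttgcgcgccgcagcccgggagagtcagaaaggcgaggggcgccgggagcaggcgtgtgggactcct

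Values are FPKM, fragments scaled to transcript length and to the mapped fragments of the library, so levels can be compared between genes per unit of length. Differences are on log2(FPKM + 1), a scale that makes folds of low genes look smaller, and a gene is called higher or lower where that difference reached 2-fold. The background is the 9795 genes whose libraries averaged 1 FPKM or more, which include all 9 members. Values in a row follow the order of the times in brackets. The median of these genes lay at -0.70, -0.49, -0.35 and -0.11 relative to 0 h (4, 8, 12, 24 h). Differences centred on the median gene are therefore given where they change a member's call or sign against 0 h, or at 24 h against 4 h. Steps between low values placed the depth at 19.1 to 19.3 M reads per library, although a wider search fitted the 24 h library best at 27.05 M. The counting intervals below (95%, Poisson) rest on that estimate and on the length of the longest protein-coding transcript of each gene. They cover counting error only and say nothing of variation between cultures. The 8 macrophage markers examined summed to 2753 to 3260 FPKM in the 5 libraries. That sum covers different courses: at 24 h against 0 h, 3 of the 8 were called higher and 1 lower, beside 11.3% and 14.5% of all genes. One protocol field of the labels speaks of dendritic cells. Of 7 dendritic cell markers, 6 were listed, with a sum of 3.55 to 16.5 FPKM. Flt3, Zbtb46, Xcr1 and Clec9a stayed below 1 FPKM in every library, Siglech was at 1.27 FPKM at 0 h and lower later, and Ccr7, a gene of migrating and activated cells, stood at 1.2, 4.82, 14.8, 11.5 and 9.13 FPKM (0, 4, 8, 12, 24 h) and made up most of the sum under LPS. Neutrophil markers, 7 of 8 listed, summed to 338.7, 321, 253.5, 179.9 and 58.8 FPKM (0, 4, 8, 12, 24 h). Of these 7 neutrophil markers, 6 were called lower and 1 higher at 24 h against 0 h. Their part in the results was not tested; in such bulk libraries fewer cells of a type and less RNA per cell cannot be told apart.

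The members fell into 3 patterns. Zfp36, Zc3h12a and Zc3h12c were higher than at 0 h in each of the 4 LPS libraries. Zfp36l1 and Zfp36l2 were lower in each of them, and Rc3h1, Rc3h2, Elavl1 and Khsrp stayed within 2-fold of 0 h on the deposited scale. At 4 h against 0 h, 3 of 9 members were thus called higher and 2 lower, where 12.2% of all genes were higher and 38.1% lower. With libraries centred on the median gene these shares were 21.5% and 13.4%, and Rc3h1 joined the higher members. The same 3 and 2 members stood apart at 8 h (12.0% of all genes higher and 28.9% lower), at 12 h (12.3% and 21.5%) and at 24 h (11.3% and 14.5%). Centred, the shares of all genes were 18.0% and 14.9% at 8 h, 16.5% and 12.9% at 12 h and 12.6% and 12.3% at 24 h. The median difference of the 9 members was -0.17 at 4 h and -0.20 at 24 h, beside -0.70 and -0.11 for all genes. It thus lay above the median gene at 4 h and below it at 24 h.

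**Figure D1:**
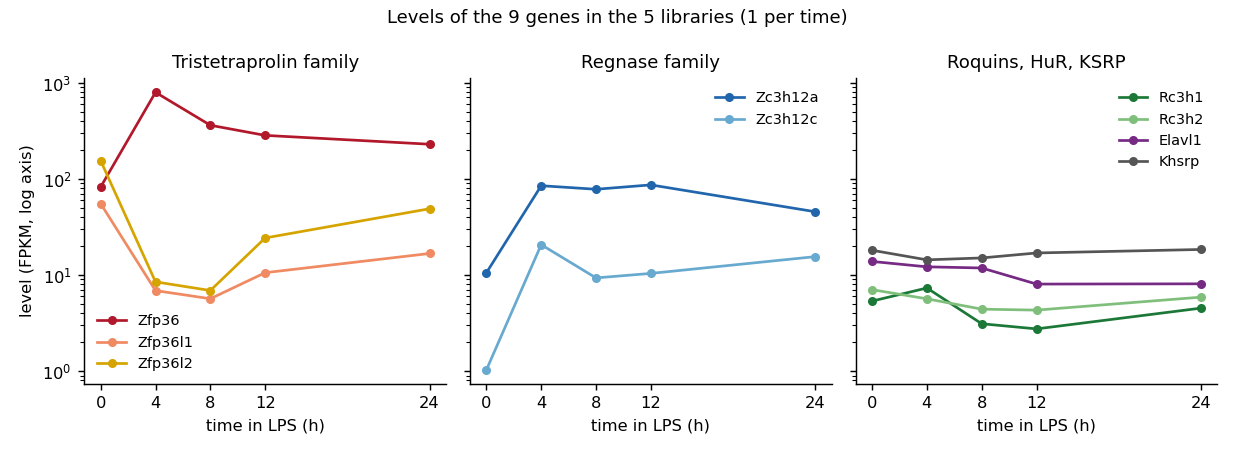
Level of each gene in FPKM (vertical log axis) against time in LPS in hours, with 1 point per library and no error bars because there was 1 library per time. Zfp36, Zc3h12a and Zc3h12c lie above their 0 h level at every later time, Zfp36l1 and Zfp36l2 lie below it, and the 4 genes of the right panel stay between 2.75 and 18.4 FPKM.

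**Figure D2:**
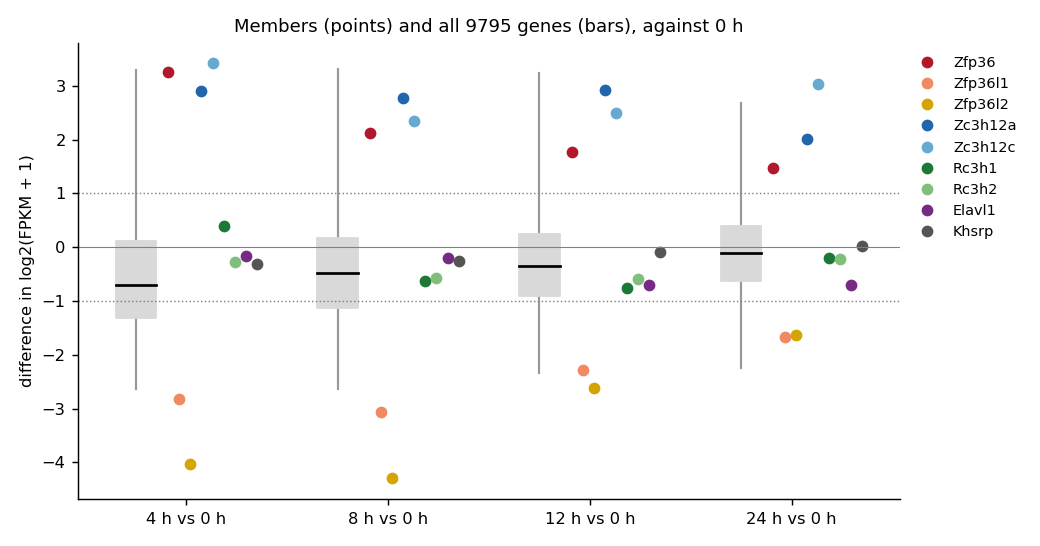
Difference in log2(FPKM + 1) from 0 h at each later time: coloured points are the 9 members, grey boxes span the quartiles of the 9795 genes, black lines are their median and grey lines cover the central 95%. Dotted lines mark 2-fold; 5 members lie beyond them at all 4 times, and Zfp36l1 and Zfp36l2 lie below the grey line at 4 and 8 h.

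Within the tristetraprolin family the paralogs differed from 0 h in opposite directions. Zfp36 (NCBI gene 22695; chromosome 7, 28376784 to 28379228, minus strand, GRCm38) stood at 82.3, 793, 360.3, 283 and 229 FPKM (0, 4, 8, 12, 24 h). It was 9.63-fold above 0 h at 4 h, a log2 difference of 3.25 that exceeded that of 97.4% of genes. At 24 h it was still 2.78-fold above 0 h. It ranked 863rd of the listed genes at 0 h and 65th at 4 h, and at 24 h it ranked 253rd.

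Zfp36l2 (gene 12193; chromosome 17, 84183924 to 84187947, minus strand) was the most abundant member at 0 h with 153.9 FPKM. It stood at 8.48, 6.89, 24.3 and 48.8 FPKM (4, 8, 12, 24 h). At 8 h it was 22.3-fold below 0 h, and 0.2% of genes had a lower difference. Between 8 and 12 h it came back 3.52-fold, a step that exceeded that of 99.7% of genes. Its FPKM was 2.01-fold higher at 24 h than at 12 h, though the log2 difference of 0.98 was short of a call. At 24 h it remained 3.15-fold below 0 h.

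Zfp36l1 (gene 12192; chromosome 12, 80107760 to 80113013, minus strand) took a similar course at a lower level: 55.1, 6.88, 5.66, 10.6 and 16.7 FPKM (0, 4, 8, 12, 24 h). It was 8.01-fold below 0 h at 4 h, 9.73-fold at 8 h and 3.30-fold at 24 h. Both paralogs thus had their lowest value at 8 h and were higher again from 12 h, without reaching the 0 h level by 24 h. For Zfp36l1 the counting intervals at 4 h (6.21 to 7.60 FPKM) and 8 h (5.06 to 6.31 FPKM) overlapped, so these libraries were not set apart. Those of Zfp36l2 (7.79 to 9.21 and 6.28 to 7.55 FPKM) did not overlap. The log2 differences at 8 h were -3.07 for Zfp36l1 and -4.29 for Zfp36l2, and -2.59 and -3.81 once centred on the median gene.

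Summed over the family, the level was 291 FPKM at 0 h and 294 FPKM at 24 h, with 808, 373 and 317.5 FPKM between them (4, 8, 12 h). The near equality of the first and last sums was on the deposited scale, where the median gene lay at -0.11 at 24 h. It covered a different make-up. Zfp36 supplied 28.3%, 98.1%, 96.6%, 89.0% and 77.7% of the family's FPKM (0, 4, 8, 12, 24 h). Zfp36l2 supplied 52.8%, 1.05% and 16.6% (0, 4, 24 h), and Zfp36l1 supplied 18.9%, 0.85% and 5.68%. Such shares within a library do not change with a scaling factor of the library. Between the paralogs, Zfp36l2 was 2.79, 1.23, 1.22, 2.30 and 2.92 times Zfp36l1 (0, 4, 8, 12, 24 h). Zfp36l2 thus lay further below 0 h than Zfp36l1 at 4 and 8 h, and the ratio at 24 h was close to that at 0 h.

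**Figure D3:**
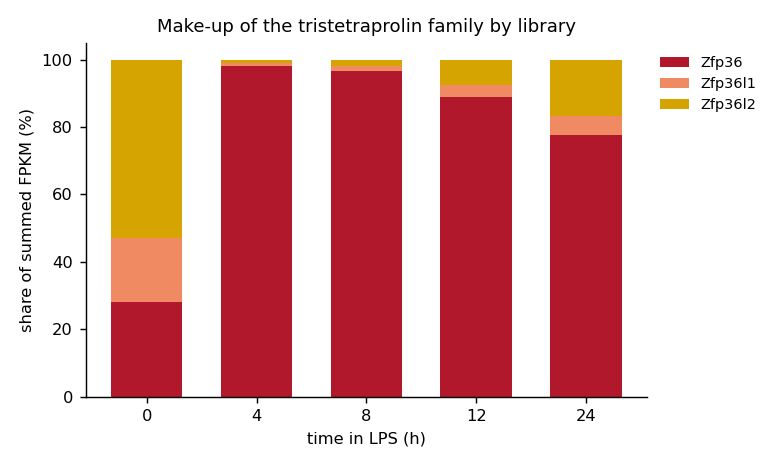
Share of the summed FPKM of Zfp36, Zfp36l1 and Zfp36l2 (percent, stacked bars from 0) in each library, by time in LPS in hours. Zfp36 makes up 28.3%, 98.1% and 77.7% (0, 4, 24 h).

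Both RNases of the Regnase family were higher under LPS, with different courses. Zc3h12a (gene 230738; chromosome 4, 125118414 to 125127881, minus strand) stood at 10.5, 84.7, 77.8, 86.4 and 45.4 FPKM (0, 4, 8, 12, 24 h). It formed a plateau from 4 to 12 h, between 7.39-fold and 8.20-fold above 0 h, and was 4.31-fold above 0 h at 24 h. Between 12 and 24 h its level dropped to 0.53 of its 12 h value, a step lower than that of all but 4.2% of genes. The log2 difference of this step was -0.91 as deposited and -1.13 centred, so it passed 2-fold only after centring.

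Zc3h12c (gene 244871; chromosome 9, 52109569 to 52168730, minus strand) was the least abundant member at 0 h with 1.03 FPKM (counting interval 0.86 to 1.22). It stood at 20.7, 9.32, 10.4 and 15.5 FPKM (4, 8, 12, 24 h). Its 20.05-fold ratio at 4 h was the largest upward ratio among the members, and it was 15.1-fold above 0 h at 24 h. The rank at 4 h depended on the processing. With the trend by transcript length removed, the log2 differences were 3.57 for Zc3h12c, 3.65 for Zc3h12a and 4.01 for Zfp36. With a pseudocount of 5 they were 2.09, 2.53 and 3.19 in the same order. The 8 and 12 h libraries lay below those of 4 and 24 h. Their counting intervals overlapped each other (8.80 to 9.86 and 9.83 to 10.95 FPKM) but not those of the 4 h (19.9 to 21.5) and 24 h (14.8 to 16.2) libraries. At 24 h its log2 difference from 0 h (3.02) exceeded that of Zc3h12a (2.01) and of Zfp36 (1.46). Zc3h12a was 10.2, 4.10, 8.35, 8.32 and 2.93 times Zc3h12c (0, 4, 8, 12, 24 h).

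Other genes of these families were taken from a list of 10, of which 6 were listed and 5 had a mean of at least 1 FPKM. N4bp1, which encodes a related RNase, was at 8.33, 60.02 and 53.6 FPKM (0, 4, 24 h). Khnyn, of the same nuclease group, was at 4.02, 6.59 and 11.99 FPKM. Zc3h12d, which encodes Regnase-4, was lower at 4 h and higher at 24 h than at 0 h, with 9.46, 3.21 and 15.0 FPKM (0, 4, 24 h). Fubp3, a relative of Khsrp, was at 9.04, 8.02 and 8.98 FPKM. Zc3h12b was listed at no more than 0.05 FPKM in any library.

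The Roquin genes were low and stayed closer to their 0 h level. Rc3h1 (gene 381305; chromosome 1, 160906411 to 160974976, plus strand) stood at 5.35, 7.32, 3.11, 2.75 and 4.52 FPKM (0, 4, 8, 12, 24 h). It was 1.37-fold higher at 4 h than at 0 h and then 2.35-fold lower at 8 h than at 4 h, a step lower than that of all but 3.7% of genes. The counting interval was 6.96 to 7.70 FPKM in the 4 h library and 2.88 to 3.36 in the 8 h library. Its log2 difference at 4 h was 0.39 as deposited and 1.09 after centring, but 0.38 once the trend by transcript length was removed, so that whether it passed 2-fold depended on the scaling. Its transcript (11006 nt) is the longest among the members.

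Rc3h2 (gene 319817; chromosome 2, 37368861 to 37424370, minus strand) stood at 7.03, 5.65, 4.41, 4.31 and 5.88 FPKM (0, 4, 8, 12, 24 h). The highest value was 1.63 times the lowest. Its log2 difference at 4 h was -0.27 as deposited and 0.42 centred, so its sign there depended on the scaling. Relative to Rc3h2, Rc3h1 was at 0.76, 1.30, 0.71, 0.64 and 0.77 (0, 4, 8, 12, 24 h). The 4 h library was thus the only one of 5 in which Rc3h1 exceeded Rc3h2.

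The AU-rich binding proteins HuR and KSRP, which act in opposite ways on such transcripts, had moderate transcript levels, and both stayed within 2-fold of 0 h. Elavl1 (gene 15568; chromosome 8, 4284781 to 4325140, minus strand) stood at 13.8, 12.2, 11.8, 8.04 and 8.09 FPKM (0, 4, 8, 12, 24 h). The first 3 libraries lay above the last 2, and the 24 h value was 1.71-fold below 0 h. The counting interval was 11.2 to 12.5 FPKM in the 8 h library and 7.52 to 8.59 in the 12 h library. Its log2 differences were -0.17, -0.21 and -0.71 as deposited and 0.52, 0.28 and -0.60 centred (4, 8, 24 h), so its sign at 4 and 8 h depended on the scaling.

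Khsrp (gene 16549; chromosome 17, 57021049 to 57031507, minus strand) stood at 18.1, 14.4, 15.0, 16.9 and 18.4 FPKM (0, 4, 8, 12, 24 h). Its highest value was 1.28 times its lowest, the narrowest range among the 9. The log2 differences were -0.31, -0.25 and -0.09 as deposited and 0.38, 0.24 and 0.27 centred (4, 8, 12 h), so their sign depended on the scaling.

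Ratios within a library set the other members against HuR without any scaling between libraries. Zfp36 was 5.95, 65.2, 30.5, 35.2 and 28.3 times Elavl1 (0, 4, 8, 12, 24 h). Zc3h12a was 0.76, 6.97, 6.58, 10.7 and 5.61 times Elavl1 (0, 4, 8, 12, 24 h). Zc3h12c was 0.08, 1.70, 0.79, 1.29 and 1.92 times Elavl1 in the same order. These ratios were higher in every LPS library than at 0 h. The paralogs of tristetraprolin went the other way: Zfp36l2 was 11.1, 0.70, 0.58, 3.02 and 6.04 times Elavl1, and Zfp36l1 3.99, 0.57, 0.48, 1.31 and 2.07 times. Khsrp was 1.18 to 2.28 times and Rc3h2 0.37 to 0.73 times Elavl1. Rc3h1 was between 0.26 and 0.60 times Elavl1 in all 5 libraries, lowest at 8 h and highest at 4 h.

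The order of the members changed with LPS. At 0 h it ran Zfp36l2, Zfp36, Zfp36l1, Khsrp, Elavl1, Zc3h12a, Rc3h2, Rc3h1, Zc3h12c, and no neighbours had overlapping counting intervals. At 4 h Zfp36, Zc3h12a and Zc3h12c led, and Zfp36l2 and Zfp36l1 were sixth and eighth, with overlapping intervals of Rc3h1 (7.32 FPKM) and Zfp36l1 (6.88 FPKM). At 24 h Zfp36 led, and Zfp36l2 (48.8 FPKM) and Zc3h12a (45.4 FPKM) overlapped, as did Khsrp, Zfp36l1 and Zc3h12c in turn (18.4, 16.7 and 15.5 FPKM). The Roquin genes were the lowest pair at 8, 12 and 24 h.

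The late library was also set against the early one. At 24 h against 4 h, Zfp36l2 (5.76-fold) and Zfp36l1 (2.43-fold) were higher, where 25.0% of all genes were, and Zfp36 (3.47-fold) was lower, where 8.19% were. The median gene differed by 0.49 between these libraries. Centred on it, 9.65% of genes were higher and 15.3% lower. Zfp36l2 (1.90) was then still past 2-fold but Zfp36l1 (0.68) was not, and Zfp36 (-2.28), Zc3h12a (-1.38), Rc3h1 (-1.08) and Elavl1 (-1.02) were past 2-fold on the lower side. Zc3h12c, at 15.5 against 20.7 FPKM, differed by -0.39 and by -0.88 centred. Rc3h2 (0.05 as deposited, -0.44 centred) and Khsrp (0.34 and -0.15) had a sign that depended on the scaling.

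Genes with the most similar course were sought among those with a mean of at least 5 FPKM, by the root mean square difference over the 4 log2 differences from 0 h. For Zfp36 they were Slc39a14, a zinc transporter gene (0.18), Tlk2, a kinase gene (0.21), and Spred1, an inhibitor of the Ras pathway (0.22). For Zc3h12a they were Tpst1, a tyrosylprotein sulfotransferase gene (0.13), Trex1, a DNA exonuclease gene (0.17), and Lacc1 (0.18). For Zfp36l1 they were Slc35c2 (0.06), Pmm1, a phosphomannomutase gene (0.17), and Tmem65 (0.17). Zfp36l2 and Zc3h12c had no equally close neighbour: the nearest were Lpar6, a lysophosphatidic acid receptor gene (0.38), Tns1 (0.42) and Arl4c (0.43) for Zfp36l2, and Gm1966 (0.31), Wdfy2 (0.34) and Dtx3l (0.38) for Zc3h12c. Between members the distance was 0.65 for Zc3h12a and Zc3h12c, 0.74 for Zfp36 and Zc3h12a, 0.87 for Zfp36l1 and Zfp36l2 and 4.75 for Zfp36 and Zfp36l1.

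The decay machinery that these proteins recruit had a median close to that of all genes. Of 71 measured genes of deadenylation, decapping, the exosome and the UPF and SMG factors, 6 were called higher and 24 lower in the 4 h library, with a median difference of -0.69 beside -0.70 for all genes. Of all genes, 12.2% were higher and 38.1% lower at 4 h. At 24 h 6 of the 71 were higher and 9 lower, beside 11.3% and 14.5% of all genes, and the median was -0.10 beside -0.11. In the CCR4-NOT complex and its adaptors, 0 of 15 were higher and 5 lower at 4 h, and 0 were higher or lower at 24 h. Centred on the median gene, 3 of the 15 were higher and 0 lower at 4 h, beside 21.5% and 13.4% of all genes. The subunit gene Cnot10 was at 9.56, 2.42 and 7.69 FPKM (0, 4, 24 h), and the deadenylase gene Cnot6l at 10.1, 3.69 and 7.18. The scaffold gene Cnot1 was at 13.5, 16.4 and 24.5 FPKM, the deadenylase gene Cnot7 at 13.5, 17.9 and 19.4, and the adaptor gene Btg2 at 11.99, 16.8 and 15.0.

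Among 8 other genes listed under deadenylation, Noct, which encodes nocturnin, was high at 4 h only: 4.02, 31.8, 5.02, 3.25 and 2.43 FPKM (0, 4, 8, 12, 24 h). Whether the products of the listed genes shorten tails was not examined. Paip2, an inhibitor of poly(A)-binding protein, was at 47.9, 14.8 and 32.9 FPKM (0, 4, 24 h), and the poly(A)-binding protein genes Pabpc4 and Pabpc1 were at 12.95 and 254 FPKM at 0 h and at 4.63 and 171 at 24 h. Of 21 decapping and 5' to 3' decay genes, 4 were higher and 9 lower at 4 h, beside 12.2% and 38.1% of all genes. Dcp2, the decapping enzyme, was at 4.94, 36.6 and 17.5 FPKM (0, 4, 24 h). The other higher genes at 4 h were Xrn1, Xrn2 and Dcp1a, named after their values were seen. Lsm7 (23.9, 5.17 and 9.80 FPKM) and Lsm2 (14.96, 3.97 and 5.05 FPKM), of the ring that binds shortened tails, and Nudt16 (7.60, 1.28 and 5.56 FPKM) were among the lower genes at 4 h. Centred, 7 of the 21 were higher and 3 lower at 4 h, beside 21.5% and 13.4% of all genes.

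In the exosome and Ski complex, 0 of 17 genes were higher and 7 lower at 4 h, where 38.1% of all genes were lower, and 0 and 3 at 24 h. At 24 h, 14.5% of all genes were lower. Centred, 0 of the 17 were higher and 3 lower at 4 h, beside 21.5% and 13.4% of all genes. The core subunit genes Exosc6 (10.1, 1.42 and 3.37 FPKM at 0, 4 and 24 h) and Exosc5 (19.8, 3.70 and 6.81 FPKM) were among the lower genes at 4 h, and Hbs1l was at 13.8, 13.4 and 18.4. Among the UPF and SMG genes, the kinase gene Smg1 was at 5.59, 10.9 and 17.6 FPKM (0, 4, 24 h) and Upf3b at 10.9, 1.70 and 6.29. Upf1, the helicase that works with Regnase-1, was at 18.6, 14.9 and 21.9 FPKM and was named after its values were seen.

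**Figure D4:**
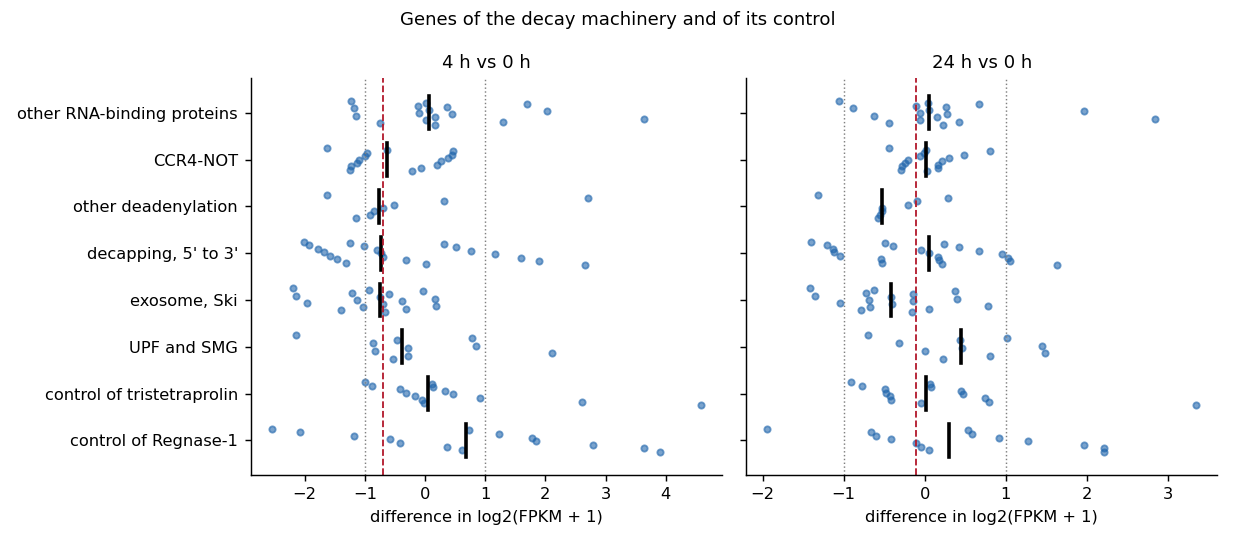
Difference in log2(FPKM + 1) of single genes (points) from 0 h at 4 h (left) and 24 h (right), by gene list, with the list's median as a black bar, the median of all genes as a red dashed line and 2-fold as dotted lines. The medians of CCR4-NOT, decapping and exosome genes at 4 h lie at -0.63, -0.73 and -0.74, near the red line at -0.70, and that of the genes that control Regnase-1 lies at 0.67.

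The signalling genes that control the decay proteins included several with large differences. Tristetraprolin is held inactive by phosphorylation through p38 and MK2 and reactivated by phosphatases. Of 14 measured genes of this control, 2 were higher and 1 lower at 4 h, with a median of 0.05, beside 12.2% and 38.1% of all genes. Centred, 5 were higher and 0 lower and the median was 0.74, beside 21.5% and 13.4%. Dusp1, the phosphatase that shuts off p38, was at 9.56, 251 and 107 FPKM (0, 4, 24 h). Mapkapk2, which encodes MK2, was at 102, 626, 402, 261 and 172 FPKM (0, 4, 8, 12, 24 h). Its relative Mapkapk3 was at 29.1, 14.03 and 16.6 FPKM (0, 4, 24 h), and Ywhah, which encodes a 14-3-3 protein, at 247, 134 and 131. Mapk14, which encodes p38 alpha, was at 44.7, 40, 9.49, 22.4 and 47.0 FPKM (0, 4, 8, 12, 24 h), and was named after its values were seen.

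Regnase-1 protein is cleaved by MALT1 and marked for degradation by IKK and IRAK1, and ARID5A opposes it on Il6 transcripts. Of 14 genes of this control, 6 were higher and 3 lower at 4 h, with a median of 0.67, and 4 were higher and 1 lower at 24 h, with a median of 0.29. Centred, 9 were higher and 2 lower at 4 h, with a median of 1.37. The shares of all genes at 4 h are those given for the control of tristetraprolin. At 24 h, 11.3% of all genes were higher and 14.5% lower as deposited. Malt1 was at 12.0, 195, 176, 137 and 59.5 FPKM (0, 4, 8, 12, 24 h). Arid5a was at 2.03, 36.7, 23.9, 19.7 and 10.9 FPKM in the same order. Both were thus highest at 4 h. Tank, which encodes an adaptor protein of NF-kappaB signalling, was at 15.9, 116 and 77.6 FPKM (0, 4, 24 h), while Card9, which acts upstream of MALT1, was at 26.5, 3.73 and 16.5.

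Of 17 other measured genes of RNA-binding proteins of cytokine transcripts, 4 were higher and 3 lower at 4 h, beside 12.2% and 38.1% of all genes, and 2 were higher and 1 lower at 24 h. At 24 h, 11.3% of all genes were higher and 14.5% lower. Centred, 6 of the 17 were higher and 0 lower at 4 h, with a median of 0.76 in place of 0.06. The centred shares of all genes at 4 h were 21.5% and 13.4%. Ythdf1, a reader of methylated adenosine, was at 17.6, 74.98 and 23.8 FPKM (0, 4, 24 h). Igf2bp2, an RNA-stabilising protein, was at 4.82, 13.2 and 40.7 FPKM, so that it went on to its highest value at 24 h. Celf2 was at 22.8, 9.49 and 11.9 FPKM (0, 4, 24 h), and Ybx1 at 244.5, 146 and 117. Hnrnpd, which encodes AUF1, was at 13.1, 14.8 and 16.03 FPKM and was named after its values were seen.

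Transcripts known as targets of these proteins were set beside them. Of 22 known targets of tristetraprolin 21 were listed and 19 passed the filter on low values, which a transcript can pass through its LPS libraries alone, so the counts are a description only. Of these, 19 were called higher in the 4 h library (median 6.26), and in the 24 h library 18 were higher and 1 lower (median 3.07). Of 13 measured targets of Regnase-1 or Roquin, 12 were higher at 4 h (median 4.95) and 12 at 24 h (median 2.35). Of all genes, 12.2% were higher at 4 h, and 11.3% were higher and 14.5% lower at 24 h. The lists share 6 genes with each other, and each holds 1 member, Zfp36 or Zc3h12a, since these transcripts are known targets themselves. At 24 h against 4 h, 16 of the 19 and 8 of the 13 were called lower, where 8.19% of all genes were. Centred on the median gene, 16 of the 19 and 11 of the 13 were lower, where 15.3% of all genes were. The cytokine gene Il1b was at 2.5, 2323 and 389 FPKM (0, 4, 24 h), Il27 at 1.26, 993 and 18.0, and Ptgs2, the inducible cyclooxygenase, at 0.55, 658 and 82.0.

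Most targets had their highest value in the 4 h library. This was so for 16 of 19 tristetraprolin targets, and their median level relative to their own highest library was 41.1%, 32.1% and 10.1% (8, 12, 24 h). Zfp36 itself had 45.5%, 35.7% and 28.9% of its 4 h level at these times. Tnf had 34.3%, 17.4% and 8.66% and Il6 28.8%, 11.1% and 1.86%, both named after their values were seen. Exceptions were Ccl2, a monocyte chemokine gene, with its highest value at 24 h (452 FPKM against 400.5 at 4 h), and Csf3 and Ier3, with theirs at 12 h. Plaur was the target below its 0 h level at 24 h (68.1 and 32.5 FPKM). Among the 13 Regnase-1 and Roquin targets, 10 were highest at 4 h. The share of all genes, or of all genes higher at 4 h, with their highest value there was not computed. Both counts of highest values at 4 h are thus a description only and cannot be read as a trait of targets. Zc3h12a kept 90.1% of its highest level at 8 h and 52.6% at 24 h, and Lcn2, an iron-scavenging acute-phase gene, was at 10.2% of its highest level at 4 h and 91.6% at 24 h. In the 3' UTR, 17 of the 19 tristetraprolin targets (89.5%) held the heptamer TATTTAT, as did 9 of the 13 Regnase-1 and Roquin targets (69.2%), against 29.8% of 9430 genes over the expression filter. Tristetraprolin binds this motif, so its targets may be known because they carry it, and these shares are a description only. The lists share genes, and 3' UTR length was not matched (medians of 690 and 764 nt against 1127.5 nt).

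**Figure D5:**
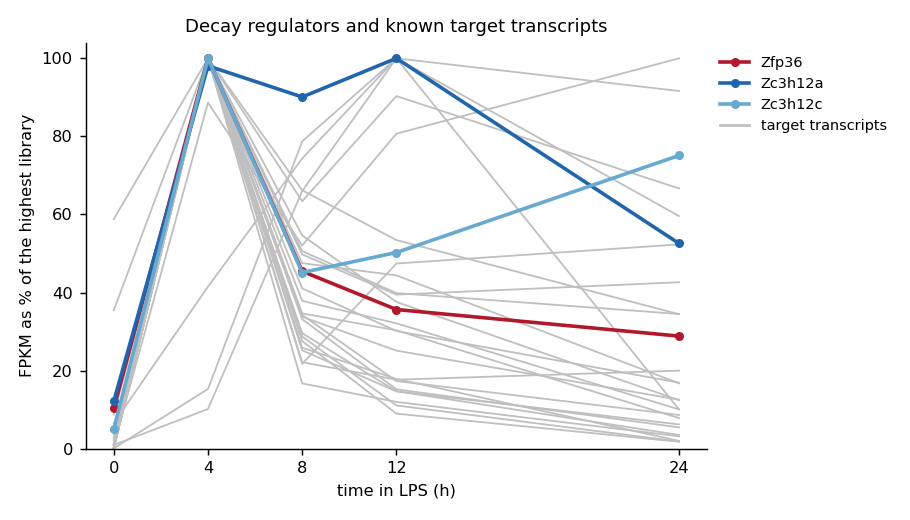
FPKM of each gene as a percentage of its own highest library (vertical axis) against time in LPS in hours: grey lines are 24 known target transcripts, coloured lines Zfp36, Zc3h12a and Zc3h12c. Of the grey lines 20 are highest at 4 h, and at 24 h Zfp36 lies at 28.9%, Zc3h12a at 52.6% and Zc3h12c at 75.1% of the highest value. The share of all genes highest at 4 h was not computed.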

How the data were processed

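RNA of mouse bone marrow-derived macrophages was sequenced after 0, 4, 8, 12 and 24 h of LPS, with 1 library per time point (groups from the time labels). The authors deposited 1 table of FPKM values, per the file headers. Bowtie2, RSEM and GRCm38 are named without versions or roles, per the submitters' processing notes; annotation and filters: not given in the sources used here. An FPKM value depends on the share of reads that other genes take, and RSEM divides reads of similar genes by estimate.

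From the table, differences in log2(FPKM + 1) and ratios of FPKM were computed (Python 3.11.15, pandas 2.3.3). Counts cover genes with a mean of at least 1 FPKM, from a 2-fold difference. The counting was tested on simulated Poisson reads with changes set well past 2-fold. The simulation held no variation between cultures, so it checks the counting steps and not the calls. No p-value was computed, since there were no replicates. Depth was estimated from the steps of low values of genes with 1 transcript of 400 to 2500 nt, shortened by 49 nt. Of 119 to 135 values per library, 48.7% to 59.7% came out as integers (tolerance 0.04 reads, or the table's rounding where larger), against 25.4% to 26.8% by chance at a fixed depth. The depth was picked for the best match between 10 and 40 M reads, so this excess is overstated, and 49 nt was picked after 10 reductions had been tried. Over all of these and 8 to 60 M reads, the best match lay at 18.8 to 19.9 M in 4 libraries and at 27.05 M, on 78 values, in the 24 h library.

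Members and gene lists were chosen with earlier results of these data known. The rule for named genes took all 9 members. For each list it took the 2 largest differences at 4 h and at 24 h against 0 h and the largest opposite one, where 1 of both libraries reached 5 FPKM, and for each member apart from 0 h the 3 genes of most similar course. A gene that the rule names is not reported here. Of 10 paralogs 4, and of the target lists Il23a and Il2, were not matched and were not analysed here. Alternatives were other pseudocounts, filters, scalings and thresholds; transcript lengths came from GENCODE M21.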

Additional observations from a re-analysis of the deposited data

How the results depend on the processing

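No direction of a called difference reversed. The 5 members apart from 0 h (Zfp36, Zfp36l1, Zfp36l2, Zc3h12a and Zc3h12c) kept their direction and stayed past 2-fold in all 140 combinations of member, time and alternative: pseudocounts of 0.1 and 5, no filter, a mean of at least 5 FPKM, centring on the median gene, removal of the trend by transcript length, and rescaling without the 100 highest genes. The changes of filter cannot alter a member's own difference, so the combinations with them were fixed in advance. Of 64 counts of members against 0 h under the alternatives, 63 were within 1.5 times the value given; with a threshold of 1.5-fold, 5 members in place of 2 were lower at 12 h. The comparison of 24 h with 4 h was less stable. Higher members numbered 1 in place of 2 with a pseudocount of 5, with centring and with the length trend removed, in each case because Zfp36l1 was no longer past 2-fold. Lower members numbered 4 in place of 1 with centring, 2 with the length trend removed and 3 with a threshold of 1.5-fold. Of all genes apart from 0 h at 4 h, 24.3% were higher as deposited, 61.6% with centring and 62.5% with the length trend removed; a pseudocount of 5 gave 915 higher and 1976 lower in place of 1197 and 3729. Centring gave 2108 higher and 1315 lower at 4 h, 1765 and 1462 at 8 h (1180 and 2831 as deposited) and, for 24 h against 4 h, 945 and 1503 in place of 2448 and 802. Of 385 list medians under the alternatives 331 were within 0.5 of the value given; that of the tristetraprolin targets at 24 h was 4.03 and 1.94 with pseudocounts of 0.1 and 5. The counting intervals rest on a depth that fitted the 24 h library less clearly than the others. With 1 library per time, leaving out a replicate was not possible, and variation between cultures is not known for any value.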
